A study of Mus musculus with 6 samples.

Results

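The 10 cytokine genes described here were taken by name from the 23420 rows of a gene expression table of T cells regenerated from mouse embryonic stem cells. They encode the T cell cytokines interferon gamma (Ifng), interleukin-2 (Il2), interleukin-4 (Il4), interleukin-10 (Il10), interleukin-17A (Il17a) and interleukin-21 (Il21), the colony-stimulating factors Csf1 and Csf2, the growth factor amphiregulin (Areg) and interleukin-16 (Il16). All 10 names were found in the table. The data were 6 RNA-seq libraries, 3 of CD4 single-positive (CD4SP) and 3 of CD8 single-positive (CD8SP) induced T (iT) cells, each made from 1000 cells sorted from spleen. The comparison asked which of these cytokine transcripts differed between the helper and the cytotoxic lineage of iT cells.

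Both groups came from the same kind of donor cell and host. The donor cells were iR9 embryonic stem cells (C57BL/6 background, CD45.2 strain) with a doxycycline-inducible Runx1-p2a-Hoxa9 cassette in the Rosa26 locus, selected as hygromycin-resistant clones. They were differentiated into blood progenitors with doxycycline and transplanted without it into sublethally irradiated B-NDG mice, a NOD strain (CD45.1+) carrying the scid mutation of Prkdc and a disrupted Il2rg gene. The host therefore lacks T, B and NK cells of its own, and the iT cells matured in an animal that was otherwise short of lymphocytes. The sort kept CD45.2+ cells negative for other lineages, Ter119 and CD11b among them, and positive for CD4 or for CD8, with no gate on activation, memory or NK1.1. No natural T cells are in this table, and no restimulation before sorting is described, so the values are transcript levels in cells taken directly from spleen. The study describes its libraries as biological replicates, but the labels do not say whether the 3 of a group came from separate mice, and if they did not, the p-values measure only technical spread.

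Helper T cells act mainly through secreted cytokines, and subsets of them are known by the cytokines they make: IFN-γ by Th1 cells, IL-4 by Th2 cells, IL-17A by Th17 cells, IL-21 by follicular helper and Th17 cells, and IL-10 by regulatory cells of several kinds. Cytotoxic CD8 T cells are known above all for IFN-γ. IL-2 is a growth factor for T cells and is made mainly by CD4 T cells after antigen contact. Most of these transcripts are short-lived and are made in bursts after stimulation, so bulk RNA holds a mixture of cells that make a cytokine and cells that do not.

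Values are given in TPM, the authors' estimate of transcript abundance, a level scaled by transcript length and by the library total. Differences are given on the log2(TPM + 1) scale as CD4SP minus CD8SP, with the standard error (SE) and the limma p adjusted over all 10476 genes tested. The test covered genes that reached 1 TPM in 3 or more libraries, and a call required an adjusted p under 0.05 together with a difference beyond 2-fold. In bulk libraries a lower level can mean fewer cells making a transcript or less of it in each cell, and these cannot be told apart. The depth of the libraries is unknown because TPM does not keep it, so a gene listed at 0 is described only as such.

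Interferon gamma and IL-16 were the most abundant of the 10 transcripts in both populations. Of the remaining transcripts 6, those of Il2, Il4, Il10, Il17a, Csf1 and Areg, were called higher in CD4SP iT cells, and none was called higher in CD8SP iT cells. Il21 and Csf2 were listed above 0 only in CD4SP libraries but were too low to be tested. The 10 transcripts together summed to 321, 278 and 291 TPM in CD4SP replicates 1 to 3 and to 170, 176 and 166 TPM in CD8SP replicates 1 to 3. Ifng and Il16 made up 68.1%, 71.7% and 65.4% of that sum in CD4SP libraries and 96.8%, 96.4% and 92.6% in CD8SP libraries. The other 8 transcripts summed to 103, 78.6 and 101 TPM in CD4SP libraries and to 5.48, 6.30 and 12.2 TPM in CD8SP libraries. Of these 10 transcripts, CD8SP libraries thus held mostly Ifng and Il16, whereas CD4SP libraries also held the others.

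**Figure D1:**
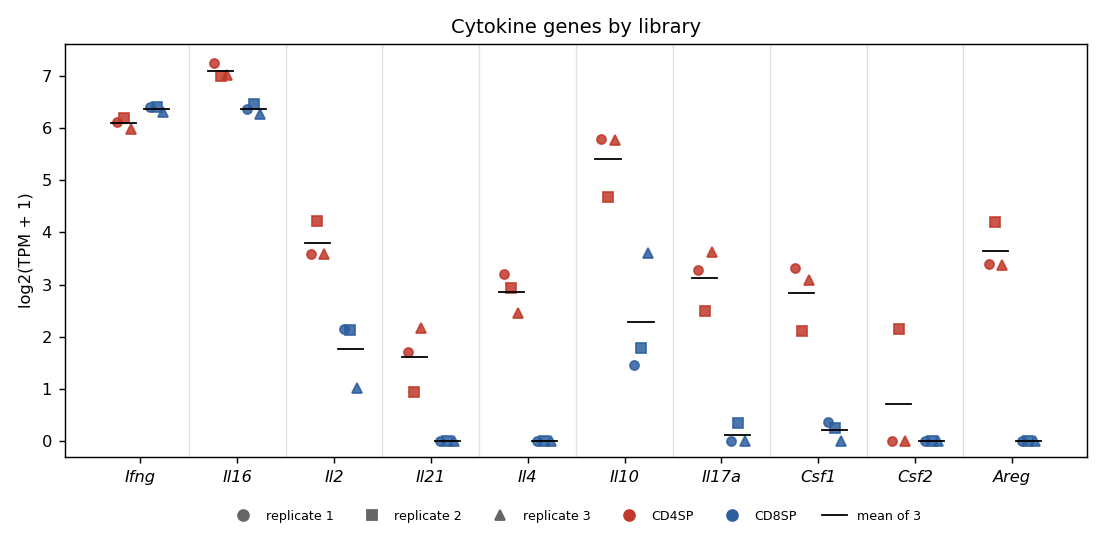
Level of each of the 10 cytokine genes in each of the 6 libraries, as log2(TPM + 1), with the mean of the 3 libraries as a black line. Ifng and Il16 sit near 6 to 7 in both populations, Ifng with CD8SP slightly above and Il16 with CD4SP above, Il2 and Il10 lie lower in every CD8SP than in every CD4SP library, and the other 6 genes are at or near 0 in CD8SP libraries.

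Of the 10 genes, 8 passed the filter and 6 of those were called, all 6 higher in CD4SP iT cells. Over all tested genes 1019 were called (9.73%), 830 of them (7.92%) higher in CD4SP and 189 (1.8%) higher in CD8SP iT cells. No cytokine was called higher in CD8SP iT cells by limma, and at an unadjusted p under 0.05 the count was also 0. In 7 of the 8 tested genes the 3 CD4SP libraries all lay above the 3 CD8SP libraries, which held for 36.6% of all tested genes. Of the 8, 4 (Il4, Il17a, Csf1 and Areg) passed the filter only through their CD4SP values and could only differ in that direction. The counts over the tested genes are therefore given as a description, and only Ifng, Il2, Il10 and Il16 reached 1 TPM in all 6 libraries.

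The scaling of the table bears on every difference. The median difference of all tested genes was 0.28 in favour of CD4SP, and 81.5% of called genes were higher in CD4SP. After rescaling by median of ratios that median was 0.0018 and the share 62.1%, after quantile normalization the share was 57.1%, and after removing ribosomal protein genes it was 72.6%. The 6 called cytokines kept their call in each of these fits. Il2 and Il10 also kept their direction, which for Il4, Il17a, Csf1 and Areg was fixed by the filter.

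Promoter sequences from RefSeq (GRCm38.p6) were matched for 9 of the 10 genes, all but Il10, by symbol. Il4 has 2 and Il16 has 3 start sites in RefSeq, and for each the one nearest the 5′ end of the GENCODE gene was taken. For Il16 that start still lies 10187 bases from this end, inside the gene. The 250 bases before the start site are shown for Ifng, which was not called, and for Il2, Il4, Il17a and Areg, which were called higher in CD4SP iT cells. They read 5′ to 3′ on the strand of the gene, and capitals mark matches, on either strand, to the 5 motifs searched. The first is TATAAA, the letters of a TATA box. The next is TGANTCA, bound by AP-1 factors. The core letters shared by NFAT and NF-κB sites were searched as GGAAA. The spaced palindrome of STAT factors was searched as TTCNNNGAA. The T-box element, bound by T-bet and Eomes, was searched as TCACACCT. A match on the other strand reads as the reverse complement, and no matches overlap in the windows shown. The window of Ifng is chr10:118440796-118441045 on the plus strand, and that of Il2 is chr3:37125955-37126204 on the minus strand. The window of Il4 is chr11:53618666-53618915 on the minus strand, that of Il17a is chr1:20730655-20730904 on the plus strand, and that of Areg is chr5:91139349-91139598 on the plus strand.
Ifng: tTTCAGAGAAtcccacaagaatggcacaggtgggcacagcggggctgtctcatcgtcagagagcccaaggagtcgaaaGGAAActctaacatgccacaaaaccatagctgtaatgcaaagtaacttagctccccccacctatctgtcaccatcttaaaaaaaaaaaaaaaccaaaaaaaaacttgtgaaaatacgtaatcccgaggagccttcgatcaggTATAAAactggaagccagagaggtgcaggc
Il2: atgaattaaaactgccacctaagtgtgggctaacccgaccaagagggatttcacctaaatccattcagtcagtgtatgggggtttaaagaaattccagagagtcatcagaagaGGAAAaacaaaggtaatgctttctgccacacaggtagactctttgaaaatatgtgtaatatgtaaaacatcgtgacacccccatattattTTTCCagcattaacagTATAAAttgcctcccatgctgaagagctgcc
Il4: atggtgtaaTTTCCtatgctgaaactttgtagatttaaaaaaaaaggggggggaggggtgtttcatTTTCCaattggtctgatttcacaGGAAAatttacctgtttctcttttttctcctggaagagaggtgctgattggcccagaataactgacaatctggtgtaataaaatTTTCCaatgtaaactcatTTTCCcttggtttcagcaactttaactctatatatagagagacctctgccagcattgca
Il17a: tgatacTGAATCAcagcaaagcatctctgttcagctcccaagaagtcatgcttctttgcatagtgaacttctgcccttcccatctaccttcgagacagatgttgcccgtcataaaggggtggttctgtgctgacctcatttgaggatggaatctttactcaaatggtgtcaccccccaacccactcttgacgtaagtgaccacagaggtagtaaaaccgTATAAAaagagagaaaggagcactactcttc
Areg: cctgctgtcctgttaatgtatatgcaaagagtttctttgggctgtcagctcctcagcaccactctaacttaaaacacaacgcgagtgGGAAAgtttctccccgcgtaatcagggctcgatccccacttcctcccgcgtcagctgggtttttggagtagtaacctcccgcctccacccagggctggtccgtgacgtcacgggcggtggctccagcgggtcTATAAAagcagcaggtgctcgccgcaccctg

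TATAAA occurred in 4 of the 9 windows (Ifng, Il2, Il17a and Areg), in each case 30 or 31 bases before the start, against 12.4% of all 32851 promoter windows of this length. GGAAA occurred in 8 of the 9, all but Il17a, against 55.6% of all windows. Il4 held 5 copies and Il2 held 2, and Ifng and Areg held 1 each. The second Il4 window, chr11:53617339-53617588, held none. The AP-1 letters were found for Il17a and for Il16 (6.75% of all windows), though in neither of the other Il16 windows. Those of STAT factors were found for Ifng alone (7.02%) and the T-box letters for none (1.12%). Matches of these letters are a description of the sequence, and binding was not measured.

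Interferon gamma, which activates macrophages and raises antigen presentation, was the only cytokine of the 10 with higher levels in CD8SP than in CD4SP libraries. Ifng (chromosome 10, 118441046 to 118445892, plus strand, protein-coding, 4 exons, mm10) measured 68.3, 72.1 and 62.3 TPM in CD4SP replicates 1 to 3 and 83.35, 83.45 and 78.2 TPM in CD8SP replicates 1 to 3. The groups did not overlap, but they lay close together, with means of 67.5 ± 4.96 (SD, n = 3) and 81.7 ± 2.98 TPM (SD, n = 3). The difference was -0.27 (SE 0.12, limma adjusted p = 0.144, 95% interval -0.55 to 0.0075), or 1.21 times higher in CD8SP by the fitted fold, and was not called. Relative to the all-gene median the difference was -0.56. The adjusted p passed 0.05 in 3 fits that changed the scaling, with a difference of -0.57 after median of ratios (adjusted p = 0.0235), -0.53 after quantile normalization (adjusted p = 0.0324) and -0.43 without ribosomal protein genes (adjusted p = 0.0406). It stayed under 2-fold in each.

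The transcription factors that activate Ifng stood differently in the same libraries. Tbx21, which encodes T-bet, differed by 0.02 (SE 0.22, adjusted p = 0.956, 95% interval -0.49 to 0.53). Eomes, the related T-box factor of CD8 T cells and NK cells, was called higher in CD8SP iT cells, at 51.4, 55.4 and 49.9 TPM against 10.6, 9.20 and 8.19 TPM in CD4SP. Stat4, which carries IL-12 signals to Ifng, differed by -0.34 (SE 0.15, adjusted p = 0.143) and Runx3 by 0.07 (SE 0.18, adjusted p = 0.803). Eomes thus differed 5.17-fold on this scale while Ifng itself did not reach 2-fold. NK cells are another known source of IFN-γ, and of the NK marker list Ncr1 and Klra8 were listed at 0 in all 6 libraries. Klrb1c, which encodes NK1.1 and is also carried by some T cells, was called higher in CD8SP iT cells, at 5.22 to 9.14 TPM against 0.682 to 1.82 TPM, and its part in the Ifng values was not tested.

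IL-16 is made as a precursor that is cut inside the cell, and its released part binds CD4 and attracts CD4 T cells. Il16 (chromosome 7, 83642825 to 83745726, minus strand, protein-coding, 19 exons in the longest transcript) measured 150.4, 126.9 and 127.9 TPM in CD4SP against 81.1, 86.3 and 75.7 TPM in CD8SP replicates 1 to 3. All CD4SP libraries lay above all CD8SP libraries. The difference was 0.73 (SE 0.13, limma adjusted p = 0.00589, 95% interval 0.44 to 1.02), which passed the adjusted p but not 2-fold, and 0.44 of it lay above the all-gene median. After median-of-ratios rescaling it was 0.42 (adjusted p = 0.0296). Il16 overlaps Stard5 on the opposite strand, with 1088 nt shared by their transcripts, and Stard5 measured 6.54 to 7.10 TPM in CD8SP and 10.04 to 15.15 TPM in CD4SP libraries. Whether strand was used in the counting is not given in the sources used here.

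**Figure D2:**
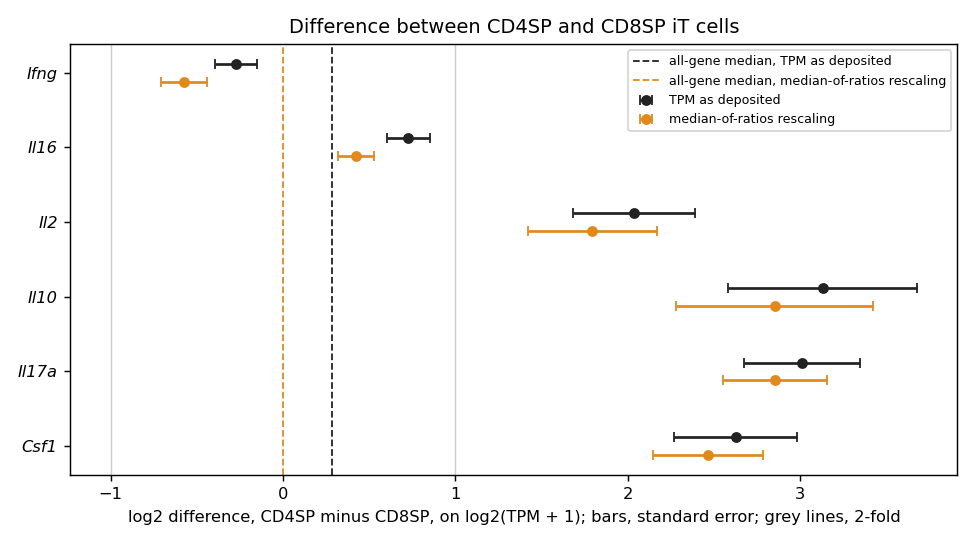
Difference between CD4SP and CD8SP iT cells on the log2(TPM + 1) scale for the 6 tested cytokines with at least 1 CD8SP library above 0, with the standard error, for TPM as deposited and after median-of-ratios rescaling. Dashed lines give the all-gene median of each fit (0.28 and 0.0018) and grey lines 2-fold. Ifng lies below both medians, Il16 lies between the median and 2-fold, and Il2, Il10, Il17a and Csf1 lie beyond 2-fold in both fits.

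Il2 and Il21 encode growth factors of the common gamma chain family, IL-2 for T cells and IL-21 for B cells and T cells, and both lie on chromosome 3, 96.8 kb apart. Il2 (37120523 to 37125959, minus strand, protein-coding, 4 exons) measured 11.0, 17.7 and 11.1 TPM in CD4SP against 3.45, 3.37 and 1.02 TPM in CD8SP replicates 1 to 3. Every CD4SP library lay at least 3 times above every CD8SP library. The difference was 2.03 (SE 0.35, limma adjusted p = 0.00593), a 4.10-fold difference on this scale, and ranged from 1.66 to 2.44 over the fits tried, all of which called it. The lowest value, 1.66, came without CD8SP replicate 3, the library with the lowest Il2. Il2 overlaps Adad1 on the opposite strand, which was listed at 0 in all 6 libraries. A stretch of 207 nt of the Il2 transcript is 99.5% identical to a Ntan1 transcript, so reads there could be shared out between them.

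Il21 (37222759 to 37232636, minus strand, protein-coding, 5 exons in the longest transcript) measured 2.29, 0.918 and 3.47 TPM in CD4SP and was listed at 0 in all 3 CD8SP libraries. It reached 1 TPM in only 2 libraries and was not tested. With no filter on low values it was called higher in CD4SP iT cells. Gm12534 is annotated as antisense within Il21, and Gm12223 within Csf2, so reads there cannot be told apart without strand. Bcl6, the regulator of follicular helper cells, was also low, at 2.04 to 3.16 TPM in CD4SP libraries against 0.326 to 0.676 TPM in CD8SP libraries, and it passed the filter only through its CD4SP values. Its call was lost in 4 of 15 fits, without CD8SP replicate 1 or 2 among them (highest adjusted p 0.0852).

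IL-4 drives B cell switching and Th2 differentiation. Il4 (chromosome 11, 53602982 to 53618669, minus strand, protein-coding, 3 exons in the longest transcript) measured 8.16, 6.62 and 4.50 TPM in CD4SP and was listed at 0 in all 3 CD8SP libraries. It was called higher in CD4SP iT cells (limma adjusted p = 0.000409), and no fold is given against a group at 0. Il4 and Areg were the 2 genes of the 10 at 1 TPM or more in all CD4SP libraries and at 0 in all CD8SP libraries, a pattern of 37 tested genes (0.353%). Both passed the filter only through their CD4SP values, so this share is given as a description only. Gata3, the Th2 regulator that binds the Il4 locus, was called higher in CD4SP iT cells, at 61.6, 72.7 and 67.0 TPM against 20.7, 19.4 and 13.7 TPM. Maf, which activates Il4 and Il10, measured 42.3, 53.6 and 69.7 TPM in CD4SP libraries against 2.76, 3.40 and 1.36 TPM in CD8SP libraries, a difference of 4.02 (SE 0.28, adjusted p = 7.19e-05), and it was called in every fit. Stat6, which carries the IL-4 signal, was not called, with a difference of 0.54 (SE 0.16, adjusted p = 0.0428) and of 0.24 (adjusted p = 0.243) after median-of-ratios rescaling. Basophils and mast cells also make IL-4, and their 4 markers Mcpt8, Cpa3, Fcer1a and Ms4a2 were listed at 0 in all 6 libraries. The part of such cells in the Il4 values was not tested.

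The other cytokines of the Th2 locus were lower than Il4 itself. Il13 measured 1.56, 0 and 1.53 TPM and Il5 measured 0.744, 2.27 and 2.84 TPM in CD4SP libraries, and both were listed at 0 in all CD8SP libraries and not tested. With no filter Il5 was called higher in CD4SP iT cells (limma adjusted p = 0.0192) and Il13 was not (adjusted p = 0.143). Il13 lies 12.7 kb and Il5 lies 102.1 kb from Il4. Rad50, between Il13 and Il5, differed by 0.49 (adjusted p = 0.118) and was not called.

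IL-10 restrains macrophages and inflammatory T cells, and its transcript was the third most abundant of the 10 in every CD4SP library. Il10 (chromosome 1, 131019845 to 131024974, plus strand, protein-coding, 5 exons) measured 54.1, 24.7 and 53.6 TPM in CD4SP against 1.74, 2.45 and 11.2 TPM in CD8SP replicates 1 to 3. The groups did not overlap, although CD8SP replicate 3 stood above the other CD8SP libraries and CD4SP replicate 2 below the other CD4SP libraries. The difference was 3.13 (SE 0.55, limma adjusted p = 0.00608), an 8.75-fold difference on this scale. It was called in every fit, from 2.71 without CD8SP replicate 1 to 3.79 without CD8SP replicate 3. Prdm1, which encodes Blimp-1 and is a known activator of Il10, was called higher in CD4SP iT cells, at 13.5, 12.9 and 13.6 TPM against 3.67, 3.95 and 3.59 TPM. The neighbouring cytokine genes Il19, Il20 and Il24 were listed at 0 in all 6 libraries.

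IL-17A recruits neutrophils and protects epithelia. Il17a (chromosome 1, 20730905 to 20734496, plus strand, protein-coding, 3 exons) measured 8.66, 4.66 and 11.2 TPM in CD4SP against 0, 0.283 and 0 TPM in CD8SP replicates 1 to 3. The difference was 3.01 (SE 0.34, limma adjusted p = 0.000759), and 5.64 with a pseudocount of 0.1, since its size depends on the pseudocount for a gene this close to 0. Its paralogue Il17f, 42.6 kb away, measured 12.5, 1.26 and 1.61 TPM in CD4SP libraries and was listed at 0 in all CD8SP libraries. Il17f was called, but not in 9 of 15 fits, among them those without CD4SP replicate 3 or without any one CD8SP replicate (highest adjusted p 0.118). Rora, a nuclear receptor that promotes Th17 cells, measured 20.0, 6.55 and 13.9 TPM against 1.74, 3.64 and 1.95 TPM and was called in every fit. Ahr, a ligand-activated factor that raises Th17 cytokines, measured 15.1, 12.4 and 18.5 TPM against 2.42, 3.92 and 3.25 TPM and was called in every fit.

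CSF1 is the growth factor of macrophages, and CSF2 (GM-CSF) acts on myeloid cells during inflammation. Csf1 (chromosome 3, 107741048 to 107760469, minus strand, protein-coding, 9 exons in the longest transcript) measured 8.98, 3.31 and 7.51 TPM in CD4SP against 0.299, 0.1995 and 0 TPM in CD8SP replicates 1 to 3. The lowest CD4SP library lay more than 10 times above the highest CD8SP library. The difference was 2.63 (SE 0.36, limma adjusted p = 0.00201), and 4.76 with a pseudocount of 0.1. Csf2 (chromosome 11, 54247271 to 54249667, minus strand, protein-coding, 4 exons) was listed at 3.46 TPM in CD4SP replicate 2 and at 0 in the other 5 libraries, and it was not tested. Il3, 15.6 kb from Csf2, was listed at 0 in all 6 libraries. Csf2 was the only one of the 10 genes whose presence rested on a single library.

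Macrophages also express Csf1 and Il10, so the myeloid marker list is given beside them. It summed to 17.7 to 32.7 TPM in CD4SP libraries against 20.7 to 24.2 TPM in CD8SP libraries, with S100a8 and S100a9 at 0 in all 6 libraries and Csf1r at 0 to 0.683 TPM. Lyz2 was called higher in CD4SP iT cells (30.9, 17.1 and 18.3 TPM against 8.33, 6.87 and 3.64 TPM) and Cd68 higher in CD8SP iT cells (1.45, 0.596 and 6.59 TPM against 15.5, 13.5 and 17.5 TPM). The call of Cd68 was lost without CD8SP replicate 3 (adjusted p = 0.056). The part of myeloid RNA in the Csf1 and Il10 values was not tested.

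Amphiregulin is an epidermal growth factor (EGF) receptor ligand that T cells make in tissue repair. Areg (chromosome 5, 91139599 to 91148432, plus strand, protein-coding, 6 exons) measured 9.46, 17.3 and 9.38 TPM in CD4SP and was listed at 0 in all 3 CD8SP libraries. It was called higher in CD4SP iT cells (limma adjusted p = 0.000144). Of the 6 other EGF receptor ligands, Tgfa, Ereg, Btc and Epgn were listed at 0 in all 6 libraries. Hbegf stayed at 0 to 1.59 TPM and Egf at 0 to 1.60 TPM, and neither was called (adjusted p = 0.716 and 0.252). Only without CD4SP replicate 2 was Egf called, higher in CD8SP iT cells. Areg was thus the only ligand of its family above 2 TPM in any library. Ereg and Epgn lie 46.0 and 104.4 kb from Areg. Adam17, the protease that sheds amphiregulin from the cell surface, was called higher in CD4SP iT cells at 38.7, 38.5 and 42.0 TPM against 19.1, 18.3 and 16.8 TPM, a difference of 1.09 (SE 0.14, adjusted p = 0.00169). It fell under 2-fold in the 3 fits that changed the scaling.

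The 18 chains of the receptors and binding partners of these cytokines were compared next. Of them 14 were tested, 5 were called higher in CD4SP iT cells (Cd4, Cd9, Ifngr2, Il17rc and Il2ra) and none higher in CD8SP iT cells by limma, with 1, Il10rb, at an unadjusted p under 0.05 in that direction. The median difference of the 14 was 0.44, beside 0.28 over all tested genes. The calls over all tested genes made up 7.92% and 1.8% in these directions. Cd4 and Il17rc, under 1 TPM in all CD8SP libraries, passed the filter only through their CD4SP values and could only differ in that direction. The 5 calls held in every fit. Cd4, which IL-16 binds, was used to sort the cells and is a check of the labels only, at 279 to 331 TPM in CD4SP libraries against 0 to 0.104 TPM in CD8SP libraries.

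Il2ra, the alpha chain that turns the IL-2 receptor into its high-affinity form, measured 95.7, 92.0 and 82.1 TPM in CD4SP against 8.77, 8.46 and 6.31 TPM in CD8SP replicates 1 to 3. The difference was 3.37 (SE 0.17, adjusted p = 1.28e-05), or 10.3-fold on this scale. The signalling chains shared with other cytokines differed much less. Il2rb, the beta chain, differed by -0.19 (SE 0.13, 95% interval -0.48 to 0.10) and Il2rg, the common gamma chain that is disrupted in the host, by 0.18 (SE 0.11, 95% interval -0.08 to 0.44). Il2rg was the most abundant chain of the list, at 1082 to 1331 TPM in CD4SP libraries against 1041 to 1147 TPM in CD8SP libraries. Il2 and its alpha chain were therefore both higher in CD4SP iT cells, and neither Il2rb nor Il2rg was called.

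The chains for IFN-γ were uneven. Ifngr1, the ligand-binding chain, measured 470 to 549 TPM in CD4SP libraries against 368 to 439 TPM in CD8SP libraries and differed by 0.34 (SE 0.12, adjusted p = 0.0689). Ifngr2, the second chain needed for signalling, measured 9.22, 16.3 and 8.75 TPM in CD4SP against 0.900, 2.01 and 1.27 TPM in CD8SP replicates 1 to 3. Its difference was 2.35 (SE 0.31, adjusted p = 0.00158), 5.10-fold on this scale. Ifngr2 was the scarcer of the pair in every library.

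Among the other chains, Il17rc measured 5.54, 11.8 and 8.68 TPM in CD4SP libraries against 0.252, 0.624 and 0.448 TPM in CD8SP libraries, a difference of 2.70 (SE 0.31, adjusted p = 0.000816), while its partner Il17ra differed by 0.46 (SE 0.15, adjusted p = 0.0552). Il4ra differed by -0.08 (SE 0.13, 95% interval -0.39 to 0.22), Il10ra by 0.00 (SE 0.14, 95% interval -0.32 to 0.32) and Il21r by 0.42 (SE 0.15, adjusted p = 0.0838). Il10rb differed by -0.51 (SE 0.15, adjusted p = 0.0473), under 2-fold. Cd9, a tetraspanin that has been described as a partner for IL-16, measured 39.5 to 59.7 TPM in CD4SP libraries against 14.1 to 15.2 TPM in CD8SP libraries and was called (difference 1.71, SE 0.18, adjusted p = 0.000609). The receptors for CSF1, CSF2 and amphiregulin were low throughout, with Egfr listed at 0 in all 6 libraries, Csf1r at up to 0.683 TPM, Csf2rb at up to 0.826 TPM, Csf2rb2 at up to 0.218 TPM and Csf2ra at up to 1.69 TPM.

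**Figure D3:**
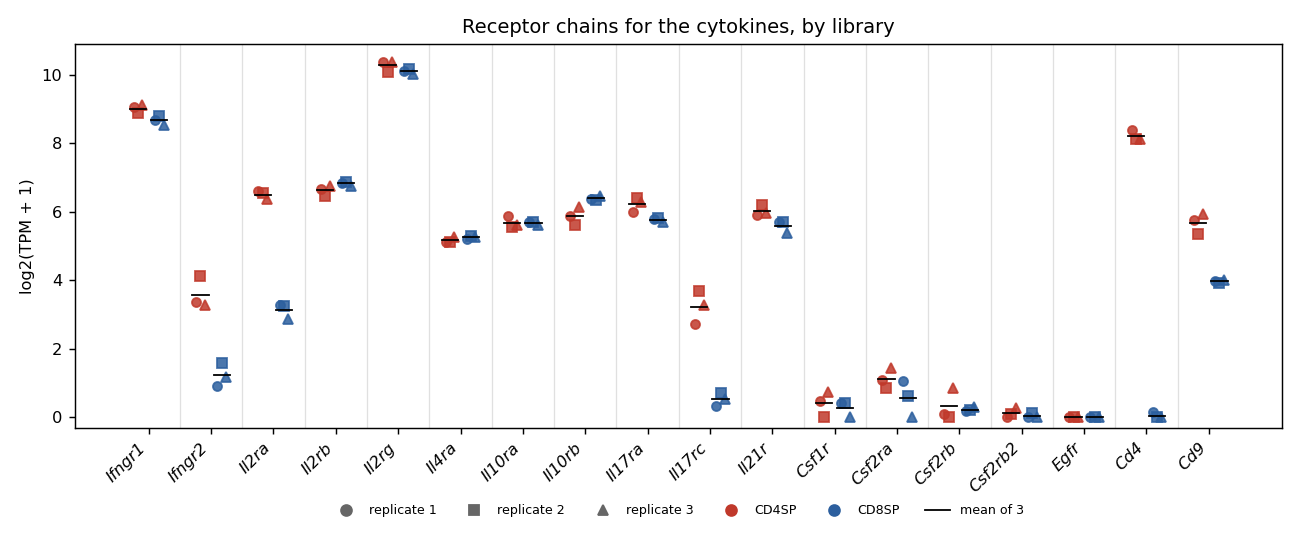
Level of the 18 receptor chains and binding partners of the cytokines in each library, as log2(TPM + 1), with the mean of 3 libraries as a black line. Cd4, Il2ra, Ifngr2, Il17rc and Cd9 were called higher in CD4SP iT cells. Without being called, Ifngr1, Il17ra and Il21r also lie higher in every CD4SP library, and Il10rb in every CD8SP library. Il2rg and Ifngr1 are the most abundant in both populations, and Csf1r, Csf2ra, Csf2rb, Csf2rb2 and Egfr stay near 0.

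Of 25 transcription regulators known to act on these cytokine genes, all were tested, 13 were called higher in CD4SP iT cells and 1, Eomes, higher in CD8SP iT cells. Over all tested genes 7.92% and 1.8% were called in these directions. Bcl6 passed the filter only through its CD4SP values and could only be called higher in CD4SP iT cells. The median difference of the 25 was 1.19, beside 0.28 over all tested genes. Among the 13 were Ahr, Bcl6, Fos, Gata3, Irf4, Maf, Nfatc1, Nfil3, Prdm1, Rora and Runx1, and 9 of the 14 calls held in every fit. The other 5, Bcl6, Irf4 and Nfil3 among them, lost theirs in some fits. Irf4, needed for Th2 and Th17 cells, lost it in 8 of 16, among them those without CD4SP replicate 1 or 3 or CD8SP replicate 2 or 3 (highest adjusted p 0.102). Nfil3 lost it under quantile normalization and without CD4SP replicate 3 (adjusted p up to 0.052). Runx1 values include any reads from the cassette, which carries the same coding sequence, and the table does not separate them.

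Of the AP-1 and NFAT factors of the list, Fos and Nfatc1 were called, and Jun, Batf and Nfatc2 were not. Fos, a part of AP-1, measured 158.7, 143.3 and 141.0 TPM in CD4SP libraries against 61.8, 63.2 and 50.1 TPM in CD8SP libraries (difference 1.33, SE 0.14, adjusted p = 0.000486). Nfatc1 measured 73.8, 37.3 and 69.8 TPM against 22.7, 26.2 and 17.3 TPM (difference 1.37, SE 0.27, adjusted p = 0.0106), and Nfatc2 differed by 0.47 (SE 0.19, adjusted p = 0.105). Jun differed by 0.88 (SE 0.26, adjusted p = 0.0476) and Batf by 0.85 (SE 0.13, adjusted p = 0.00325), both under 2-fold, and Jun was called without CD4SP replicate 1. Of 7 factors that control the decay of cytokine mRNA, Zfp36l1 was the 1 called, a share near the 9.73% of all tested genes. It was higher in CD4SP iT cells at 59.7, 79.6 and 88.9 TPM against 22.7, 24.3 and 29.0 TPM. Zfp36, which encodes tristetraprolin and speeds that decay, differed by 0.98 (SE 0.13, adjusted p = 0.00149) and passed 2-fold in 2 of 16 fits, those without CD4SP replicate 1 and without CD8SP replicate 3.

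Of 23 other cytokine genes, 9 passed the filter, 6 of them were called higher in CD4SP iT cells and none higher in CD8SP iT cells, where the count at an unadjusted p under 0.05 was also 0. The shares of all tested genes called in these directions were 7.92% and 1.8%. Ebi3, Il15, Il17f and Lif passed the filter only through their CD4SP values and could only differ in that direction. Ebi3, a shared chain of IL-27 and IL-35, measured 64.6, 54.7 and 61.7 TPM in CD4SP libraries and was listed at 0 in all CD8SP libraries. Lta, which encodes lymphotoxin alpha, measured 80.9, 78.0 and 82.9 TPM against 24.8, 28.0 and 15.5 TPM (difference 1.82, SE 0.21, adjusted p = 0.000946). Osm, of the IL-6 family, measured 26.2, 46.2 and 35.7 TPM against 11.2, 12.1 and 7.51 TPM (difference 1.71, SE 0.25, adjusted p = 0.00294). Lif (up to 3.10 TPM) and Il15 (up to 4.37 TPM) were called at low levels, and Il17f is described above. Ltb, which encodes lymphotoxin beta, was more abundant than any of the 10 cytokines, at 271.2, 252.6 and 355.1 TPM in CD4SP libraries against 294.7, 271.8 and 277.4 TPM in CD8SP libraries. It differed by 0.04 (SE 0.14, 95% interval -0.28 to 0.37), and Tnf by 0.89 (SE 0.23, adjusted p = 0.0298), under 2-fold. Tnf was called without CD4SP replicate 3 (difference 1.03, adjusted p = 0.0375). Il3, Il6, Il9, Il24, Il27, Il31, Il1a, Il1b and Csf3 were listed at 0 in all 6 libraries.

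The genes within 200 kb of the 10 cytokine genes were also read. This window was chosen after the values had been seen. It held 56 other genes of the table, of which 24 were listed at 0 in all 6 libraries, 21 were tested and 3 (14.3%) were called, a share close to the 9.73% of all tested genes. These 3 were Il17f near Il17a, Bbs12 near Il2 and Il21, and Pdlim4, which lies 178.3 kb from Csf2. Bbs12 measured 21.0, 19.4 and 20.2 TPM in CD4SP libraries against 9.60, 9.91 and 6.70 TPM in CD8SP libraries. Another 6 passed the adjusted p but not 2-fold, all with higher values in CD4SP libraries. Of all tested genes, 1164 (11.1%) passed the adjusted p but not 2-fold, 1015 of them (9.69%) with higher values in CD4SP libraries. The 6 were Mapkapk2 near Il10 (difference 0.98, adjusted p = 0.00368), Aff4 (0.996, adjusted p = 0.0212) and Irf1 (0.59, adjusted p = 0.038) near Il4, Fnip1 near Csf2 (0.96, adjusted p = 0.0138), Ahcyl1 near Csf1 (0.49, adjusted p = 0.0317) and Stard5 at Il16 (0.72, adjusted p = 0.0442).

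The 3 CD4SP libraries did not hold the cytokines in the same proportions. CD4SP replicate 2 stood apart from replicates 1 and 3 in 7 of the 10 genes. Its Il2 was 1.61 times and its Areg 1.84 times the mean of replicates 1 and 3, and it was the only library with Csf2. Its Il10 was 0.458 times, its Il17a 0.468 times, its Il21 0.319 times and its Csf1 0.402 times that mean. Ifng, Il4 and Il16 showed no such gap, with CD4SP replicate 2 at 1.10, 1.05 and 0.912 times the mean of replicates 1 and 3. Over all tested genes with a mean of 1 TPM or more, replicate 2 was the farthest of the 3 CD4SP libraries in 49.2% of genes, and CD8SP replicate 3 was the farthest of the CD8SP libraries in 61.0%.

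Foxp3, the factor that defines regulatory T cells, followed the same split, at 141.6 and 167.2 TPM in CD4SP replicates 1 and 3 and at 6.56 TPM in CD4SP replicate 2. CD8SP libraries listed it at 7.48, 7.48 and 10.05 TPM. Foxp3 was not called (difference 2.61, SE 1.01, limma adjusted p = 0.1). It was called, however, without CD4SP replicate 2 (difference 4.06, adjusted p = 9.44e-05) and with replicate number fitted as a block. Il2ra (95.7, 92.0 and 82.1 TPM) and Maf did not follow it. Rora (20.0, 6.55 and 13.9 TPM), Irf4 (27.5, 11.9 and 16.1 TPM) and Nfatc1 (73.8, 37.3 and 69.8 TPM) were also lowest in replicate 2. Whether the CD4SP libraries held different shares of regulatory T cells was not tested. All 6 called cytokines remained called without CD4SP replicate 2, Il10 with a difference of 3.49 and Il2 with 1.82. The direction of Il4, Il17a, Csf1 and Areg was fixed by the filter in this fit too.

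**Figure D4:**
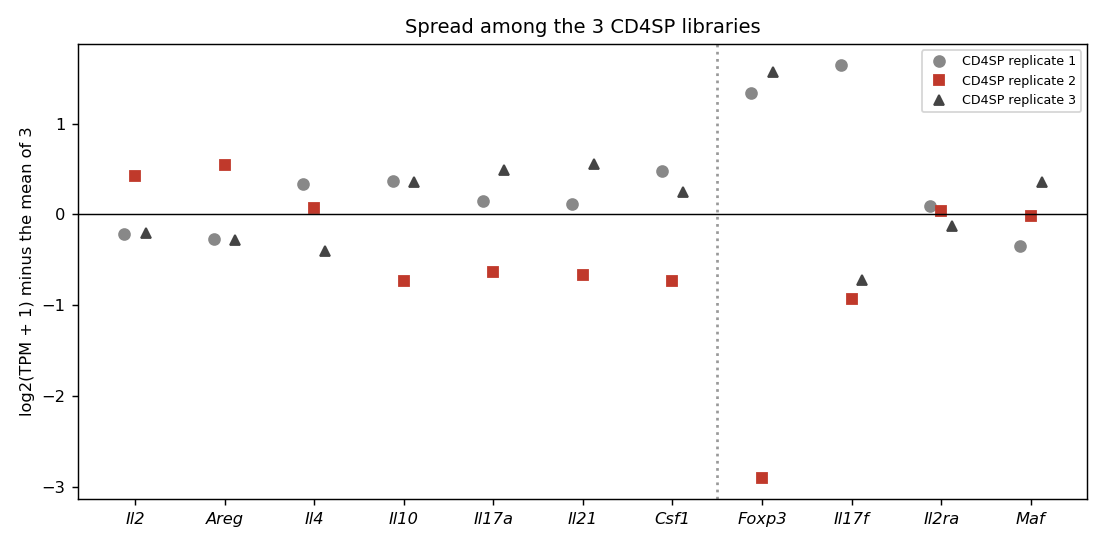
Deviation of each CD4SP library from the mean of the 3, on the log2(TPM + 1) scale, for 7 cytokine genes (left of the dotted line) and 4 other genes. CD4SP replicate 2 is highest for Il2 and Areg and lowest for Il10, Il17a, Il21 and Csf1, and lies furthest below the mean for Foxp3 (6.56 TPM, against 141.6 and 167.2 TPM).

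For each called cytokine the 2 tested genes with the most similar profile over the 6 libraries were found as those with the smallest root mean square difference of mean-centred log2(TPM + 1) values. For Il17a the nearest was Tnfsf11, which encodes RANKL, at 41.2, 24.6 and 53.4 TPM in CD4SP libraries against 2.98, 4.23 and 3.24 TPM in CD8SP libraries (difference of profiles 0.065), followed by Tbc1d4 (0.16). For Il4 they were Slc15a3 (0.063) and Kctd17 (0.13), and for Areg Ncmap (0.17) and Ifitm2 (0.24). For Il2 they were Ramp1 (0.20), a receptor-modifying protein, and C1qb (0.23), a complement chain known from macrophages, at 4.26, 9.56 and 6.98 TPM in CD4SP libraries against 0.862, 0.910 and 0 TPM in CD8SP libraries. For Csf1 they were Slc41a3 (0.20) and Il17rb (0.21), and for Il10 St6galnac2 (0.45) and 1810011H11Rik (0.52). The median difference over all tested genes ranged from 1.01 for Il2 to 1.74 for Areg. With 6 libraries in 2 groups such likeness rests largely on the group difference itself.

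The libraries fitted their labels. Cd8a and Cd8b1 were called higher in CD8SP and Cd4 and Zbtb7b higher in CD4SP iT cells, with Cd8a at 0.319 to 2.93 TPM in CD4SP libraries against 1038 to 1161 TPM in CD8SP libraries. Cd8b1, the other CD8 chain, measured 24.3 to 36.0 TPM in the former and 2197 to 2401 TPM in the latter. The B cell markers Ms4a1 and Pax5 and the stromal markers Col1a1 and Col3a1 were listed at 0 in all 6 libraries. Libraries listed between 9971 and 10649 genes at 1 TPM or more. Averaging CD8SP replicates 1 and 2, which lay close together, into 1 library left all 6 calls. Those of Il4, Il17a, Csf1 and Areg could only be in the CD4SP direction.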

How the data were processed

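Polyadenylated RNA of 6 libraries, 3 CD4SP and 3 CD8SP, was measured, with groups and replicate numbers taken from the sample titles. The authors amplified cDNA, converted reads with bcl2fastq 2.16.0.10, aligned them with HISAT2 2.1.0 to mm10, estimated expression with StringTie 1.3.4 and deposited TPM, 1 column per library (sums 997896 to 998100). The annotation, strand setting and treatment of duplicates are not given in the sources used here. TPM are not counts, so the depth is unknown, no count test was used and no interval from counts is given.

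The 10476 genes reaching 1 TPM in 3 or more libraries were fitted as log2(TPM + 1) with limma 3.58.1 in R 4.3.3 (eBayes with a mean-variance trend) and Benjamini-Hochberg adjustment. A call needed an adjusted p under 0.05 and a difference over 2-fold, the criterion of the study. The code was tested on simulated data. An exact permutation test of 3 against 3 libraries cannot go below 0.1 and was not used. The 10 genes and all lists were chosen with earlier results of these data known. Named genes were the 10 cytokines, receptor chains, list genes called or bearing on a cytokine, and the 2 genes nearest in profile to each called cytokine. Others, including cytokine neighbours, were chosen after their values were seen. Libraries with the same number did not deviate together (r = 0.05, -0.02 and 0.09), so the numbers were not taken as pairs. The alternatives were another pseudocount, 2 other filters, 3 other scalings, no trend, a replicate block, no fold threshold, averaging CD8SP replicates 1 and 2, and leaving out each library. Of the table's rows, 27 had names turned into dates and were not used by name. Positions are from GENCODE M21 (GRCm38, the same assembly as mm10), 1-based, near-identical transcripts (at least 95% over 200 nt) were searched with blastn 2.17.0, and promoters are from RefSeq. A few genes of the lists are not reported here.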

Additional observations from a re-analysis of the deposited data

How the results depend on the processing

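All 6 called cytokines were called in every fit that tested them, and Ifng and Il16 in none under the 2-fold rule. The direction of Il2 and Il10 stayed the same. Il4, Il17a, Csf1 and Areg passed the filter only through their CD4SP values and could only differ in that direction, so their unchanged direction shows nothing. A filter of 5 TPM left 5 of the 10 genes tested and 3 called, because fewer genes passed it. With no filter 7 were called, Il21 being added. Without the fold threshold 2183 genes and 7 cytokines were called (84.5% of genes higher in CD4SP), since Il16 then counts. Of called genes, those higher in CD4SP made up 62.1% after median of ratios, 57.1% after quantile normalization and 72.6% without ribosomal protein genes, and 77.2% to 83.6% when 1 library was left out. The quantile fit called 9 regulators. The causes were not tested.

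Replicate numbers 1 to 3 are shared by both groups, but same-numbered libraries did not deviate together. With the replicate block 997 genes and the same 6 cytokines were called, and Foxp3 was added (adjusted p = 0.0438). With 3 libraries a group, unknown depth and a pseudocount that sets the size of a difference for genes near 0, the differences of Il17a and Csf1 have no fixed size, those of Il4 and Areg none at all, and Il21 and Csf2 are descriptions only.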
